A study of Fukomys damarensis and Heterocephalus glaber and Mus musculus with 160 samples.

Results

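The 4 Hox clusters of the mouse were read from histone peak lists of adult liver and heart. The members were all peaks that overlap Hoxa (chr6:52150000-52265000), Hoxb (chr11:96190000-96370000), Hoxc (chr15:102915000-103045000) or Hoxd (chr2:74650000-74770000) of the mouse genome build GRCm38, windows that hold the 39 Hox genes. They numbered 987 of 1711588 peaks over 29 libraries, 370 in Hoxa, 366 in Hoxb, 106 in Hoxc and 145 in Hoxd. By mark, 263 were H3K4me3 peaks, 231 H3K27ac peaks and 493 H3K4me1 peaks.

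The series mapped histone marks in liver and heart of several rodents by chromatin immunoprecipitation sequencing, in which DNA bound by a modified histone is pulled down, sequenced and compared with unselected chromatin, the input. All mice used here were wild-type C57BL/6J males aged 2 months, and the labels name no treatment. The 4 liver mice (85920, 85921, 85923 and 85924) each gave a library of every mark, while the heart gave 6 H3K4me3, 6 H3K27ac and 5 H3K4me1 libraries from 12 animals or pools. The heart sample called the pool here joined 3 mice and was counted as 1 replicate. All 12 liver libraries were called against input of the same mouse, but 13 of the 17 heart libraries were called against input of another mouse. Only the pool and the H3K4me1 library of heart 17_3498 had their own input, too few to tell tissue and kind of input apart. Whole organs were used, so each list mixes all cell types of the tissue. With no gene annotation of this build in use, the labelled tissue was not checked against marker genes, and no peak was assigned to a gene.

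Hox genes encode homeodomain transcription factors that give cells of the embryo their position along the body axis. In each cluster the order of the genes matches the order of their use, from the anterior genes at one end to the posterior genes at the other, and adult organs are known to keep parts of that positional pattern. As general knowledge, not read from the files, the anterior end is the low-coordinate end of the Hoxa window and the high-coordinate end of the other windows. Hoxb13 lies far from the rest of its cluster. H3K4me3 is known for active and poised promoters, H3K27ac for active promoters and enhancers, and H3K4me1 for enhancers and for the flanks of promoters.

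Some libraries stood apart. The liver H3K4me1 list of 85924 held 131 Hox peaks against 39 to 55 in the other liver lists. It was also the longest of them, with 113889 peaks against 86486 to 92496. The heart H3K4me1 lists ran from 20521 peaks in the pool to 129914, and Hox peaks from 12 in the pool to 99 in 33017, whose list carries a tag that the labels do not explain. In H3K4me3 the pool had the most Hox peaks, 47, against 14 to 33 in the other hearts. No read depth is given by the lists, and no 2 libraries of a group shared more than 0.00668% of their peaks by exact position. Differences in covered share for these marks are given with and without these libraries.

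H3K4me3 lay mostly on the anterior side of the midpoint of the Hoxa and Hoxb windows in both tissues and was nearly absent from Hoxc. In liver it was nearly absent from Hoxd too, where every heart carried it. H3K4me3 peaks covered 12%, 11.3%, 9.97% and 10.8% of the Hoxa window in liver 85920, 85921, 85923 and 85924. In the 6 hearts the share had a lowest value of 3.71%, a median of 5.74% and a highest value of 12.5%, the last in the pool, so the tissues overlapped through that library. The difference, heart minus liver, was -4.39 percentage points with the pool and -5.57 without it, against a pooled SD of 2.44. In Hoxb the liver shares were 6.45%, 6.08%, 6.21% and 6.11%, and the heart shares had a lowest value of 2.02%, a median of 4.73% and a highest value of 8.83%. They overlapped through the pool alone, the other hearts reaching 5.11%, and the difference was -1.28 points with the pool and -2.07 without it (pooled SD 1.76).

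**Figure D1:**
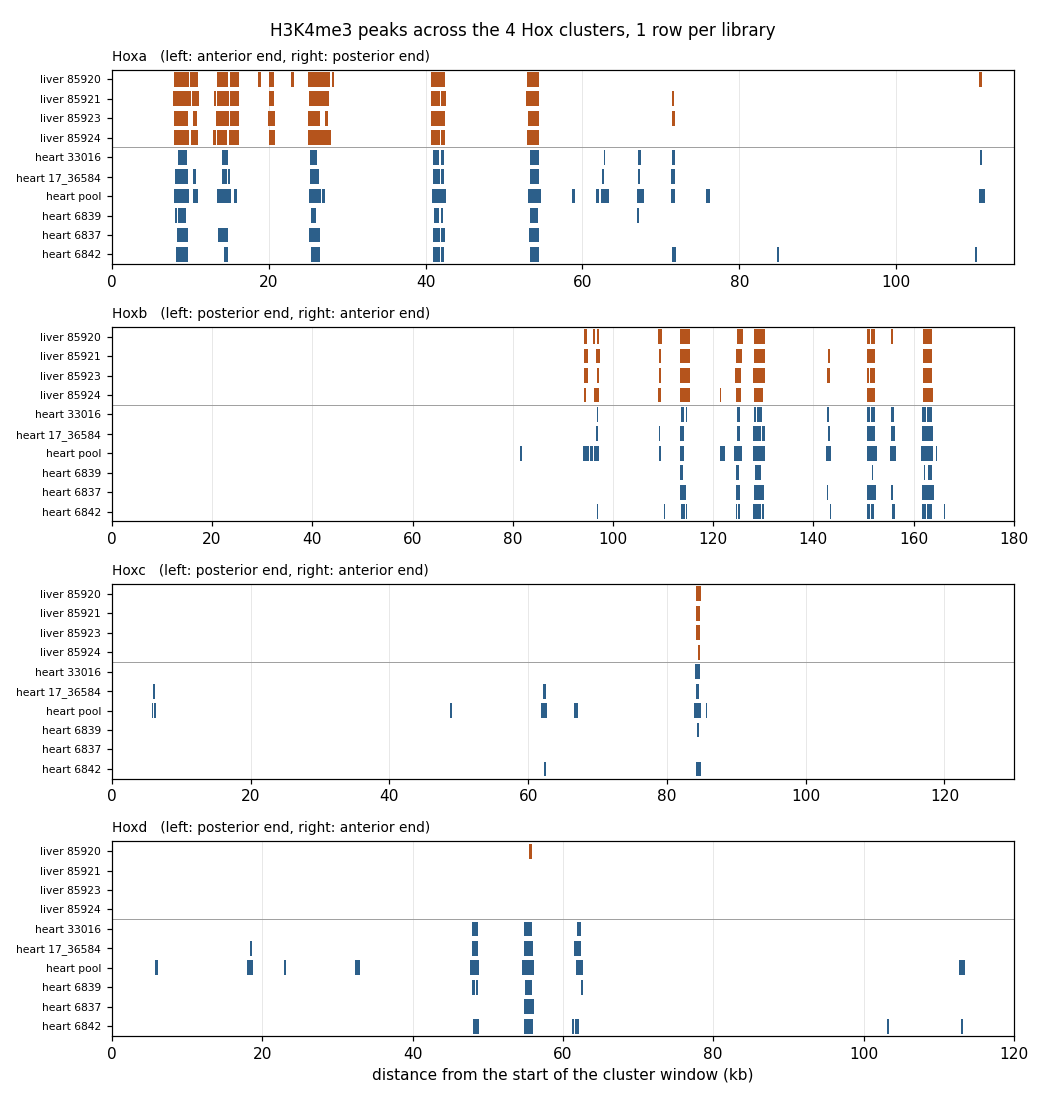
H3K4me3 peaks of each library along the 4 cluster windows. The x axis is the distance in kb from the low-coordinate end of each window, each row is 1 library (liver brown, heart blue) and each block is 1 peak to scale. The same few sites recur in Hoxa and Hoxb of both tissues, and the Hoxd sites are in the 6 hearts and, for 1 short peak, in liver 85920.

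Heart lists had shorter H3K4me3 peaks genome-wide, with a median width of 334 to 1138 bases against 1132 to 1239 in liver, and the part of this in the narrower Hox sites described next was not tested. The fold of a site is its highest peak's fold over background, the authors' own value, as are all folds given here.

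Among the Hoxa sites with H3K4me3 in all 10 libraries were chr6:52174995-52177902, chr6:52190633-52192600 and chr6:52202751-52204712. Their mean fold was 24.8 ± 6.45, 33.5 ± 8.98 and 26.8 ± 9.01 in liver (SD, n = 4) and 21.6 ± 4.84, 25.7 ± 12.4 and 21.2 ± 6.89 in heart (SD, n = 6). The widest Hoxa site, chr6:52162948-52166220 (3273 bases), was in all 4 livers with 2775 ± 123 bases covered and in 5 of 6 hearts with 924 ± 731 bases covered. By contrast, chr6:52169890-52170852 was in every liver, at fold 7.16, 7.97, 6.07 and 5.52, and in no heart. Toward the posterior end, chr6:52212395-52213398 and chr6:52216931-52217797 had peaks in 3 and 4 of 6 hearts and in no liver. The other posterior sites were in both tissues, chr6:52221259-52221883 in 2 livers and 4 hearts and chr6:52260563-52261283 in 1 liver and 2 hearts. Of the H3K4me3 bases in Hoxa, 97.9% ± 1.41 (SD, n = 4) lay on the anterior side of the window's midpoint in liver and 85.7% ± 10.2 (SD, n = 6) in heart.

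In Hoxb, 5 sites had H3K4me3 in all 10 libraries. The strongest in both tissues, and the widest when peaks of all libraries were merged (2503 bases), was chr11:96317909-96320411, with folds of 40.5, 31.0, 29.4 and 29.2 in liver 85920, 85921, 85923 and 85924 and of 16.6 to 46.2 in heart. Its mean of 32.5 ± 5.40 in liver (SD, n = 4) and 31.0 ± 12 in heart (SD, n = 6) differed by less than the spread between libraries. The site nearest the Hoxb1 end, chr11:96351553-96354019, was alike too, at 18.2 ± 6.80 and 16.8 ± 2.70, as was chr11:96340606-96342648, at 12.3 ± 4.5 and 12.7 ± 5.82. At chr11:96303304-96305420 the fold was 12.7 ± 1.77 in liver and 7.87 ± 2.94 in heart, with 1984 ± 85.4 and 809 ± 264 bases covered. At chr11:96314219-96315921 it was 13.8 ± 3.36 and 10.2 ± 5.06, with 1184 ± 71.2 and 854 ± 314 bases covered. A further site, chr11:96345265-96346439, had a peak in 5 of 6 hearts and 1 of 4 livers, whereas chr11:96284020-96285124 had one in 4 of 4 livers and, among hearts, in the pool alone. No H3K4me3 base lay on the Hoxb13 side of the midpoint of the window in liver, and 0.542% ± 1.33 (SD, n = 6) of them did in heart. No gene positions were read and Hoxb13 lies far from the other genes, so the midpoint need not split the genes evenly. That share therefore does not place the mark among the genes.

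Hoxc had 1 H3K4me3 site seen in both tissues, chr15:102998964-102999947, 84.0 kb from the Hoxc13 end. Its fold was 10.3, 12.4, 8.65 and 2.71 in liver 85920, 85921, 85923 and 85924. Of the hearts, 5 of 6 had it, at fold 6.98 to 14.8, and 6837 did not. Peaks of the mark covered 0.396% ± 0.126 of the window in liver (SD, n = 4) and 0.823% ± 0.9 in heart (SD, n = 6), where the pool had 2.53%. The difference was 0.427 points with the pool and 0.0853 without it.

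Hoxd was where the tissues differed most plainly in H3K4me3. Peaks covered 0.229% of the window in liver 85920 and none of it in the other livers, against a lowest value of 1.06%, a median of 2.30% and a highest value of 5.27% in the hearts. The tissues did not overlap, and the difference was 2.46 percentage points with the pool and 1.91 without it (pooled SD 1.18). Genome-wide, covered bases did not overlap with heart higher in 8.52% of 10910 windows of 100 kb, and with liver higher in 1.95%. The pool, called like the livers against its own input, had the highest share, and the part of the input was not tested.

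The heart signal that recurred in at least 5 of 6 libraries lay at 3 Hoxd sites in the middle of the window. At chr2:74704628-74706096 all 6 hearts had a peak, with a lowest fold of 8.23, a median of 10.3 and a highest fold of 18.9, covering 997 to 1469 bases. Liver 85920 had a peak of 275 bases there, at fold 4.39, lower than in any heart, and the other livers had none. The flanking sites chr2:74697634-74698837 and chr2:74711512-74712711 were each in 5 of 6 hearts, all but 6837, at a mean fold of 9.80 ± 5.10 and 9.48 ± 3.27 (SD, n = 5), and in no liver. A further 2 sites were each in 2 hearts and no liver, chr2:74668031-74668722 in 17_36584 and the pool and chr2:74762769-74763537 in the pool and 6842. The folds at the 3 central sites were modest within their lists, at percentile 10.5 to 56.5 of all peaks in heart. Because 6837 lacked 2 of the sites and liver 85920 had the third, no Hoxd tile of 1 kb was in every heart and no liver.

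H3K27ac was confined to Hoxa and Hoxb in the 4 liver lists and covered more of both there than in any heart. It covered 10.6%, 11.3%, 10.7% and 7.67% of the Hoxa window in liver 85920, 85921, 85923 and 85924. In the hearts the lowest share was 1.20%, the median 2.54% and the highest 5.83%, so the tissues did not overlap and differed by -7.18 percentage points, heart minus liver (pooled SD 1.70). In Hoxb the liver shares were 8.15%, 7.37%, 6.73% and 6.73%, and those of the hearts 2.50%, 2.79% and 5.29% at the lowest, median and highest, again with no overlap, a difference of -3.89 points (pooled SD 0.988). The pool, with its own input, had 3.56% in Hoxa and 2.57% in Hoxb, and the part of the input was not tested. Such a separation with liver higher was common: 22.3% of 14234 windows of 100 kb showed it for H3K27ac, and 23.5% the reverse. Heart lists held 57663 to 109724 H3K27ac peaks against 56871 to 63479 in liver, but with a median width of 355 to 705 bases against 578 to 636, and they covered 1.54% to 3.41% of the genome against 2.21% to 2.47%. The part of this in the lower Hox shares was not tested. Heart 73317, with the 3.41%, had 5.83% in Hoxa and 5.29% in Hoxb, the highest of the hearts and below every liver.

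**Figure D2:**
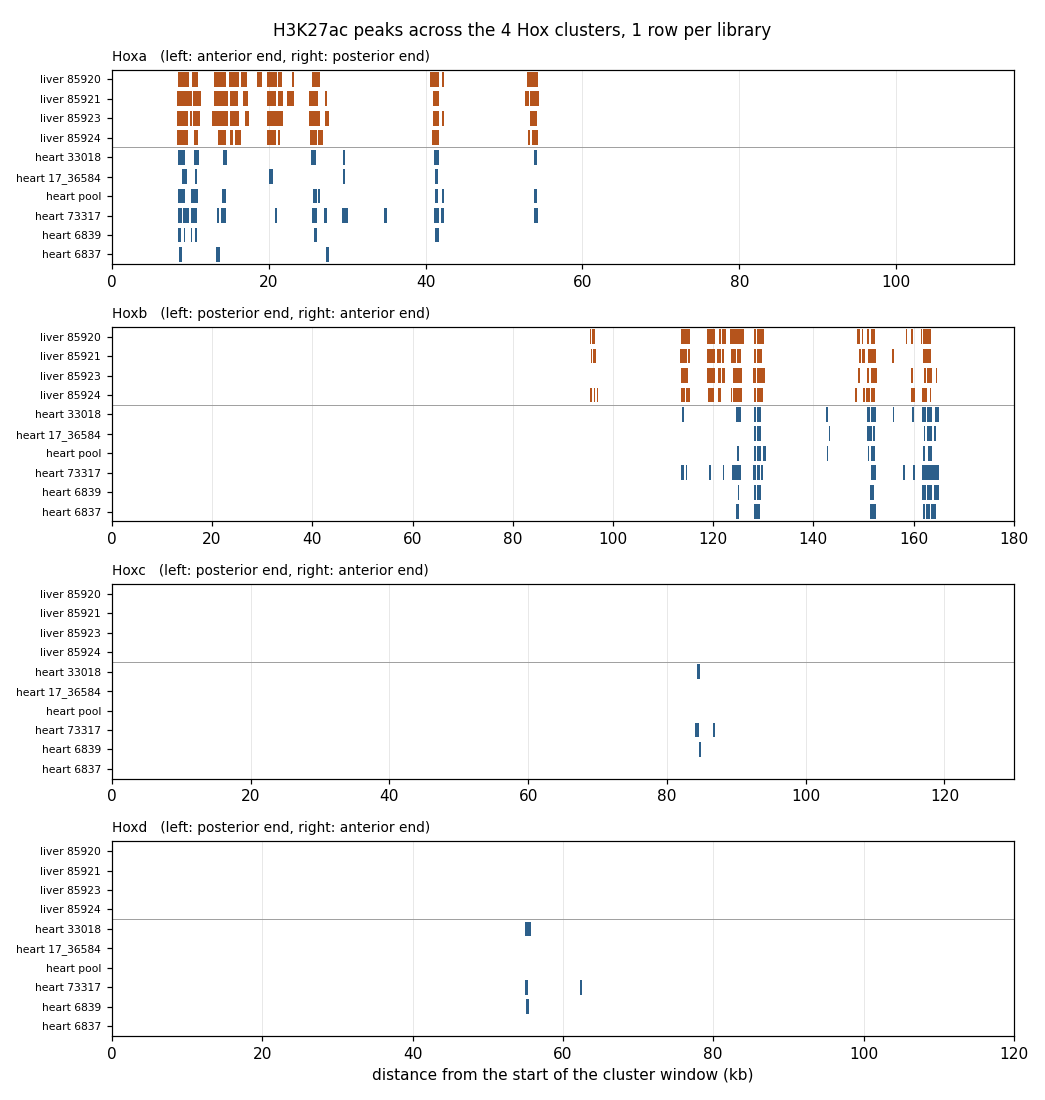
H3K27ac peaks of each library along the 4 cluster windows, drawn as for H3K4me3: x is the distance in kb from the low-coordinate end, rows are libraries (liver brown, heart blue) and blocks are peaks. Peaks of Hoxa and Hoxb lie on the anterior side of the window's midpoint and cover more in liver. Hoxc and Hoxd hold peaks in 3 of the 6 hearts only.

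All H3K27ac bases in Hoxa lay on the anterior side of the midpoint, 100% in each of the 10 libraries, and none in Hoxb lay on the Hoxb13 side. As for H3K4me3, the Hoxb midpoint need not split the genes evenly. The site chr6:52164966-52166420 had a peak in each liver, of 1292, 1104, 1222 and 1083 bases at fold 4.30, 5.20, 7.04 and 5.53, and none in any heart. In the other direction, chr6:52179303-52180060 had a peak in no liver but in only 3 of 6 hearts, at fold 4.31 to 6.44.

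Hoxb had 3 H3K27ac sites in all 10 libraries. Their fold was 11.2 ± 1.21 in liver and 8.20 ± 2.45 in heart at chr11:96318007-96320478, and 11.6 ± 3.27 and 7.87 ± 2.14 at chr11:96340573-96342685 (SD, n = 4 and n = 6). At chr11:96351503-96355159, nearest the Hoxb1 end and the widest of the cluster, the fold was 7.15 ± 1.95 in liver and 8.51 ± 2.24 in heart. Peaks covered 1640 ± 231 bases of that last site in liver and 2318 ± 765 in heart, though the hearts' range of 1341 to 3514 bases held all livers. Further inside, chr11:96310812-96311633 was in all livers, with peaks of 450, 663, 596 and 636 bases at fold 6.59, 5.70, 10.2 and 6.22, and in no heart. A site of 2677 bases, chr11:96313375-96316051, was in all livers and 5 of 6 hearts, with 2072 ± 355 bases covered in liver and 669 ± 614 in heart. The short site chr11:96332520-96332998 had a peak in 2 hearts, 33018 and the pool, and in no liver.

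Hoxc and Hoxd had no H3K27ac peak in any liver. In heart each had a peak in 3 of 6 libraries, 33018, 73317 and 6839 in both clusters. The Hoxc site was chr15:102999099-102999902 at fold 6.10 ± 0.785, and the Hoxd site chr2:74704898-74705783 at fold 5.80 ± 1.01 (SD, n = 3). Each lay on the leading H3K4me3 site of its cluster. The hearts without them were 17_36584, 6837 and the pool, which had its own input, and the part of the input was not tested.

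**Figure D3:**
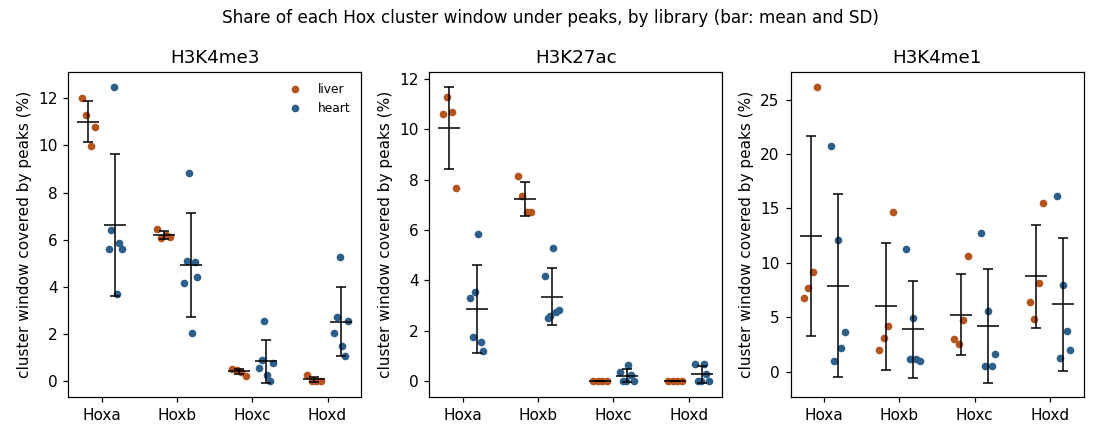
Share of each cluster window under peaks, in percent, for the 3 marks. Each point is 1 library (liver brown, heart blue), and the black bar with whiskers is the mean ± SD of a tissue. Liver and heart do not overlap for H3K27ac in Hoxa and Hoxb and for H3K4me3 in Hoxd, and the H3K4me1 points scatter widely in both tissues.

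To compare positions across the genome, the chromosomes were divided into tiles of 1 kb, and a library was taken to mark a tile when its peaks covered at least 200 bases. Tiles marked in at least 2 libraries were tested for a difference in the number of marking libraries by two-sided Fisher's exact test with Benjamini-Hochberg adjustment over the genome. For H3K27ac, 6 of 49 Hox tiles tested were called with liver higher (12.2%, 4 in Hoxa and 2 in Hoxb), beside 15.5% of all 171847 tiles, and 0 with heart higher, beside 6.53%. The share called was therefore near the background. Each called tile was in all 4 livers and 0 of 6 hearts, at the smallest adjusted p the test can give, 0.0216, and the called tiles equal those in every library of one tissue and none of the other (15.5% liver only and 6.53% heart only genome-wide). They formed runs at chr6:52165001-52167000 and chr11:96310001-96312000 and single tiles at chr6:52169001-52170000 and chr6:52171001-52172000. Both single tiles overlap the site chr6:52169717-52171827, which had a peak in all 4 livers and in 2 of 6 hearts. Heart 73317 had peaks reaching into chr6:52171001-52172000 and chr11:96311001-96312000, below the 200-base minimum. With both directions counted together, 10 Hox tiles were called without liver 85923 or without heart 73317, beside 23.8% and 25.7% of tiles genome-wide. By an exact permutation test on the bases covered it was 19, with 36.2% of tiles genome-wide. These shares are not to be set against the 15.5% for liver higher alone.

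For H3K4me3, 0 of 50 Hox tiles were called in either direction, as in the genome (0% with heart higher and 0% with liver higher), since the smallest adjusted p that this test could give was 0.109. At an unadjusted p under 0.05 by Fisher's exact test there were 10 Hox tiles (20%, against 13.5% of tiles genome-wide). In every liver and no heart were 3 tiles (6.00%, against 1.48% of 47107 tiles), at chr6:52170001-52171000, chr6:52177001-52178000 and chr11:96305001-96306000, and 6 without the heart pool (2.27% genome-wide). In every heart and no liver were 0 tiles (against 2.90%), and 2 without heart 6837, 1 without heart 6839 and 1 without liver 85920 (3.30%, 4.08% and 3.23% genome-wide).

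H3K4me1 was spread over all 4 clusters in both tissues, the posterior parts included. It covered 6.78%, 7.70%, 9.20% and 26.2% of Hoxa in liver 85920, 85921, 85923 and 85924, and 20.7%, 0.944%, 12.1%, 2.17% and 3.61% in heart 33017, the pool, 17_3498, 17_3501 and 17_3500. In Hoxd the shares were 6.44%, 4.84%, 8.19% and 15.5% in the livers and 16.1%, 1.21%, 7.95%, 3.69% and 1.97% in the hearts, in the same order. In Hoxb the means were 5.99% ± 5.89 in liver (SD, n = 4) and 3.90% ± 4.46 in heart (SD, n = 5), and in Hoxc 5.22% ± 3.71 and 4.18% ± 5.19. The tissues overlapped in every cluster, and the differences, heart minus liver, of -4.56 points in Hoxa, -2.09 in Hoxb, -1.04 in Hoxc and -2.57 in Hoxd were within the spread between libraries. The sign and size moved with the libraries that stood apart. In the same order of clusters the differences were 0.0126, 0.817, 0.75 and -0.302 without liver 85924, -7.75, -3.94, -3.16 and -5.05 without heart 33017, and -2.82, -1.41, -0.119 and -1.32 without the heart pool. Without liver 85924 and the pool together, the highest liver and a low heart, they were 1.75, 1.5, 1.67 and 0.942. Genome-wide, 0.796% of 16332 windows of 100 kb did not overlap with heart higher and 14.6% with liver higher.

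**Figure D4:**
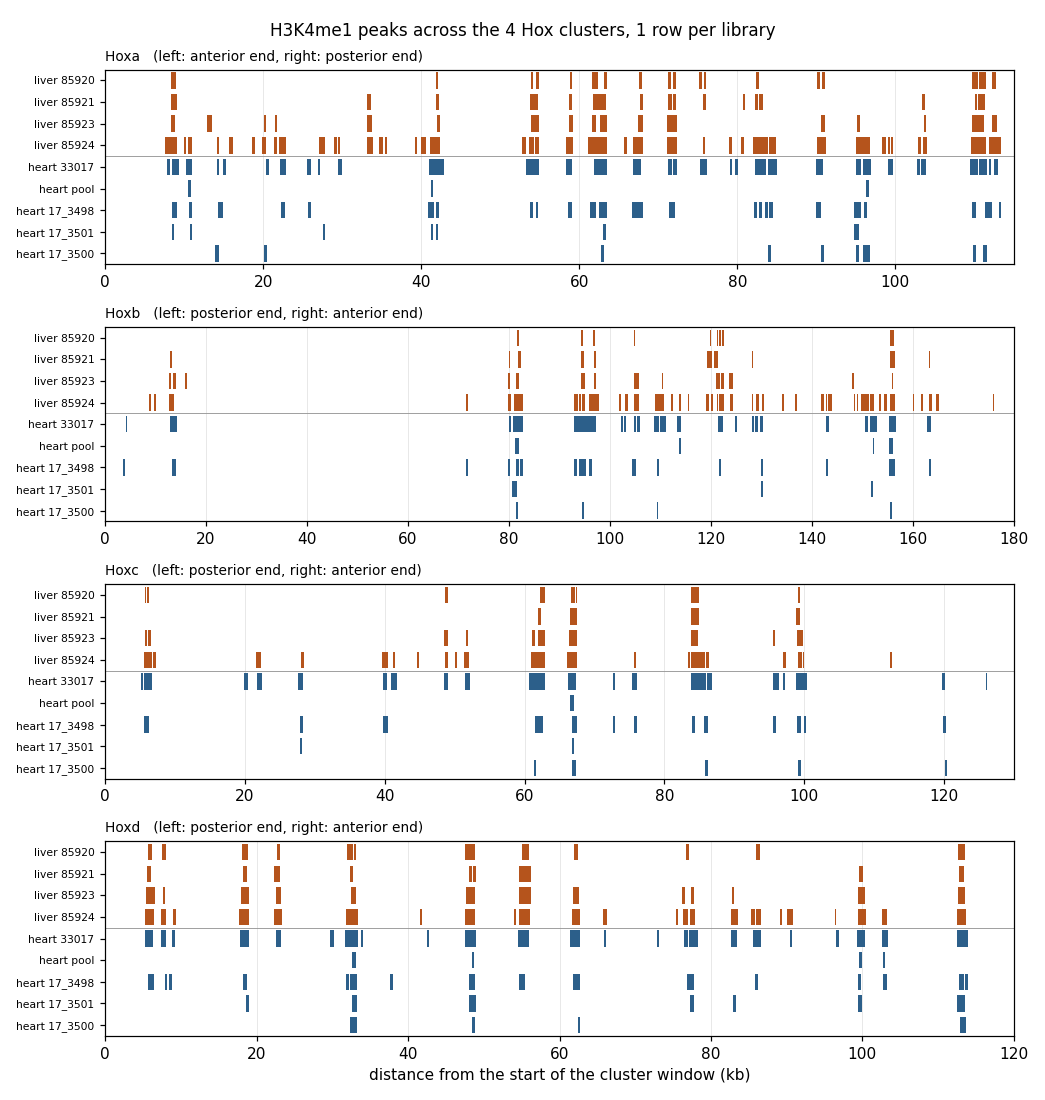
H3K4me1 peaks of each library along the 4 cluster windows; x is the distance in kb from the low-coordinate end, rows are libraries (liver brown, heart blue) and blocks are peaks. Sites recur along most of Hoxa and Hoxd and less evenly in Hoxc, where a stretch of 41.7 kb holds none seen in at least 2 livers. Liver 85924 and heart 33017 hold the most peaks, and the heart pool the fewest.

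Of 128 Hox tiles tested for H3K4me1, 0 were called by Fisher's exact test in either direction, as genome-wide (0% and 0%), where the smallest adjusted p it could give was 0.0805, and 4 had an unadjusted p under 0.05 (3.12%, against 26.7% of tiles genome-wide). In every liver and no heart were 0 tiles, against 9.14% of 214536 tiles, and in every heart and no liver 0, against 0.722%. The first count was 2 without liver 85920, 1 without heart 33017 and 1 without heart 17_3498, beside 11%, 13% and 10.6% of tiles genome-wide.

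A few H3K4me1 sites were in all 9 libraries. In Hoxc this was chr15:102981013-102982572, with fold 6.33, 13.5, 8.07 and 18.4 in the livers and 6.79, 5.49, 6.96, 2.70 and 5.10 in the hearts, which also made it the liver site of highest mean fold in that cluster. In Hoxb it was chr11:96270599-96272820, with 879 ± 703 bases covered in liver (SD, n = 4) and 1070.0 ± 569 in heart (SD, n = 5). Hoxd had 2, chr2:74681698-74683353 and chr2:74697485-74698979, and in Hoxa no site was in all 9. The widest Hoxa site, chr6:52259503-52263431, lay 109.5 kb along the window, at the Hoxa13 end, with a fold of 9.84, 5.25, 6.13 and 16.0 in the livers and 12.1, 10.5 and 5.64 in heart 33017, 17_3498 and 17_3500. The other hearts had no peak there. It was also the Hoxa site of highest mean fold in both tissues, 9.30 ± 4.88 (SD, n = 4) and 9.42 ± 3.36 (SD, n = 3 with a peak). In Hoxd the highest mean fold was at chr2:74697485-74698979 in liver, 8.40 ± 6.41 (SD, n = 4), and at chr2:74762489-74763986 in heart, 10.1 ± 3.69 (SD, n = 4 with a peak). Without liver 85924, whose fold there was 17.8, the liver site of highest mean fold in Hoxd was chr2:74655238-74656532, at 6.57 ± 0.631 (SD, n = 3). Without it the leading liver site stayed chr6:52259503-52263431 in Hoxa, at 7.07 ± 2.44, and chr15:102981013-102982572 in Hoxc, at 9.30 ± 3.74 (SD, n = 3). The widest sites elsewhere were chr11:96283732-96287866 in Hoxb (4135 bases), chr15:102998749-103001770 in Hoxc (3022 bases) and chr2:74726176-74727970 in Hoxd (1795 bases).

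The marks were then set side by side on the tiles, a tile counting for a tissue when at least 2 libraries marked it, which is easier to meet with the larger number of heart libraries. Of 545 Hox tiles, 109 carried any mark in liver and 96 in heart. H3K4me1 alone was the commonest state in both, with 59 tiles in liver and 50 in heart. In liver Hoxd it was the only state, at 21 of 21 marked tiles. Tiles with H3K4me3 and H3K4me1 but no H3K27ac numbered 4 in liver and 18 in heart, and those with H3K4me3 and H3K27ac but no H3K4me1 numbered 19 and 9. Apart from the pool, the heart H3K4me1 libraries came from other mice than those of the other marks, while each liver mouse gave every mark. The heart counts therefore join marks of different animals, and no genome-wide share is set beside them.

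Fewer of the Hox tiles with H3K4me3 carried H3K27ac in heart than in liver. In liver 27 of 35 Hox tiles with H3K4me3 had H3K27ac (77.1%), near the 81.4% of 35638 such tiles over the genome. In heart it was 20 of 42 (47.6%), against 86.2% of 39481 tiles over the genome. The same was read within single animals, since 4 livers and 4 heart samples had both marks. The share was 75.7%, 75.0%, 73% and 78.8% in liver 85920, 85921, 85923 and 85924, where the whole genome gave 77.6%, 82.5%, 82.0% and 77.3%. In heart 17_36584, the pool, 6839 and 6837 it was 29.7%, 24.6%, 52.6% and 40%, where the whole genome gave 77.7%, 74.9%, 85.3% and 61.7%.

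All 4 hearts lay below all 4 livers, and each heart below its own genome-wide share. In Hoxa alone the share was 80.0% to 88.2% in the livers and 20.0% to 37.5% in the hearts, and in Hoxb 63.2% to 82.4% and 32.0% to 71.4%, which overlapped. The heart shares rest on 19 to 65 tiles with H3K4me3, the most in the pool. The pool, the only one of these hearts with its own input for both marks, had the lowest share, 16 of 65 tiles. It is 1 library per mark, and the part of the input was not tested. No test was made of these shares, which are counts over the Hox tiles.

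**Figure D5:**
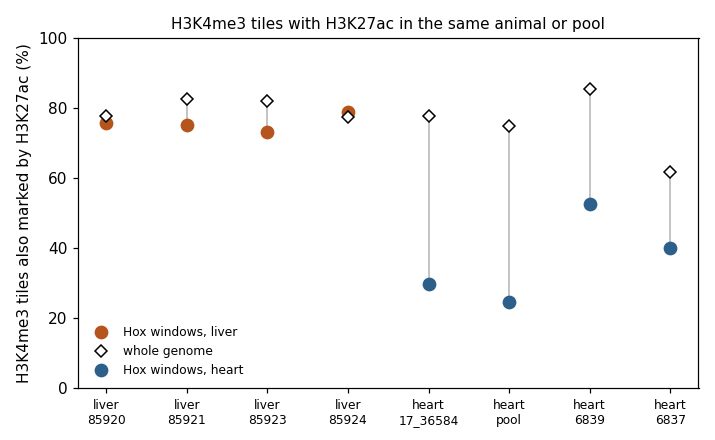
Share of tiles with H3K4me3 that also carry H3K27ac in the same animal or pool, in percent. Filled circles are the 4 Hox windows together (liver brown, heart blue), open diamonds the whole genome of the same libraries, and grey lines join them. The livers sit at 73% to 78.8%, close to their diamonds, and the hearts at 24.6% to 52.6%, below theirs.

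The places with H3K4me3 in at least 2 hearts and fewer than 2 livers were mostly marked by H3K4me1 in liver. All 5 Hoxd regions with H3K4me3 in at least 2 hearts overlapped a liver H3K4me1 region seen in at least 2 livers, and so did the 6 such regions of the other clusters, 11 of 11 in all. At the main Hoxd site, liver H3K4me1 (chr2:74704570-74706214) had fold 4.34, 5.54, 7.91 and 12.9 in 85920, 85921, 85923 and 85924 and so did not depend on 85924. By tiles, 12 of 14 Hox tiles of that kind had liver H3K4me1 (85.7%), against 51.8% of 9873 such tiles over the genome. No test was made of that difference.

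Long parts of each window lay between the regions found in at least 2 libraries of a tissue. For the 3 marks together the longest such stretch of Hoxb ran over 65.5 kb, chr11:96204206-96269749, in both tissues. In Hoxc it was 41.7 kb in liver, chr15:102921695-102963442, and 20.9 kb in heart, chr15:102921695-102942627. In Hoxd it was 14.1 kb in both, chr2:74683354-74697484. In Hoxa it was 9.87 kb in liver, chr6:52192836-52202702, and 12.5 kb in heart, chr6:52246980-52259502.

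For H3K4me3 and H3K27ac alone, the longest stretch of Hoxa was the posterior 43.1 kb in liver and, in heart, 38.7 kb up to the site at the Hoxa13 end. That of Hoxb was the 94.0 kb and 96.1 kb at the Hoxb13 end. In Hoxc it was the 84.0 kb at the Hoxc13 end in liver and 55.5 kb in heart, chr15:102921396-102976872. In Hoxd it was all 120 kb in liver and 50.1 kb in heart, chr2:74712712-74762768.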

How the data were processed

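Peaks were called by the authors with MACS2, per the submitters' processing notes, with 1 list per library against a named input and positions on GRCm38 per the file names. The sources used here name neither an aligner nor versions. The deposited fold of a peak is a linear ratio over background, used to describe and rank peaks within a list. Folds were also set side by side between libraries and tissues, without a test and without adjustment for the input used. Of the deposited significance columns, −log10 p-value was not needed, and −log10 q-value, at least 1.30 in the lists, served as a filter in an alternative. Depth per library is unknown. Computation used SciPy 1.17.1, pandas 2.3.3 and NumPy 2.4.6 under Python 3.11.15, and Matplotlib 3.10.9 drew the plots.

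Peaks of the 29 libraries that touch were merged to regions, kept when found in at least 2 libraries of a tissue. Tiles of 1 kb were tested as described in the results at a threshold of 0.05. Neighbouring tiles are not independent. The test was checked on simulated data. Named positions are the widest and the highest-fold region per cluster, tissue and mark, runs of tiles separated between tissues, the longest empty stretches and regions in all libraries of a mark; others that differ between tissues were chosen after their values were seen. Results at 1 position named by this rule are not reported here. The members and rules were chosen with earlier results of these data known. Lists of other species (87) were not used. Gene starts, Hox cofactor genes and sequences were not analysed here, since no mouse genome or annotation of this build was used. Alternatives were other coverage minimums, a shifted grid, −log10 q of at least 4, equal peak numbers, other library minimums, another test and leaving out each library. The 100-kb windows, 2 H3K4me1 alternatives and the liver H3K4me1 folds without 85924 were chosen after seeing the data.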

Additional observations from a re-analysis of the deposited data

Results flagged for a closer look

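In 4 of 22 combinations of cluster, mark and tissue, 1 library's covered share lay far from the others of its group by Dixon's criterion. Its rate of about 1 group in 20 holds for independent groups of normally distributed values. These groups share libraries and their shares cannot fall below 0%, so the count cannot be set against that rate. For heart H3K4me3 the pool of 3 mice covered 12.5% of Hoxa, against 3.71% to 6.42% in the other hearts, and 2.53% of Hoxc, against 0% to 0.905%. For liver H3K4me1, mouse 85924 covered 26.2% of Hoxa, against 6.78% to 9.20% in the other livers. For liver H3K4me3, mouse 85920 covered 0.229% of Hoxd, against 0% in the others, where any share above 0% would have been flagged.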

How the results depend on the processing

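No paired analysis was possible because no mouse gave both tissues. Of 280 recomputed values, 258 stayed within the spread between libraries or within 1.5 times the count, and 22 moved. They include counts of called H3K4me3 and H3K4me1 tiles. In the main run, Fisher's exact test could give no adjusted p below 0.109 and 0.0805 for those marks. Where such a count stayed at 0, that is no sign of stability. For H3K27ac, the tiles in every liver and no heart went from 6 to 11 at a −log10 q of at least 4 and to 12 with equal peak numbers, settings where the genome-wide share also rose, from 15.5% to 16.7% and 18.3%, and ranged from 6 to 10 over left-out libraries. The called tiles, both directions together, ranged from 6 to 10 likewise and numbered 19 by the exact permutation test on covered bases (36.2% genome-wide). For H3K4me3, the tiles in every liver and no heart fell from 3 to 1 when 500 bases were required (2.01% genome-wide). They ranged from 3 to 6 over left-out libraries, where the genome-wide share ranged from 1.48% to 7.02%, the latter without heart 6837 (3 tiles). Tiles in every heart and no liver rose from 0 to 1 when 1 base or 500 bases were required, with equal peak numbers and with the grid shifted by 500 bases (2.28% to 2.94% genome-wide), and ranged from 0 to 2 over left-out libraries. For H3K4me1, tiles in every liver and no heart went from 0 to 1 with the shifted grid and 1 with the 2 hearts of the do library series alone (9.18% and 14.3% genome-wide), and ranged from 0 to 2 over left-out libraries. Tiles in every heart and no liver went from 0 to 1 without liver 85924 and the heart pool together, where the genome-wide share went from 0.722% to 8.72%. The cause was not tested. The number of libraries, not depth, sets the smallest p, and read depth cannot be judged from peak lists.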
